A study of Mus musculus with 6 samples.

Results

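The 8 transcription factor genes of enterocyte identity, segment identity and the suckling state examined here were Prdm1, Maf, Gata4, Gata6, Cdx1, Cdx2, Hnf4a and Hnf4g. They were picked by symbol, and all 8 were found among the 24452 symbols of each file. Expression was measured by RNA-seq in small intestine of C57BL/6 mice at postnatal day 14, when mice still suckle. There were 3 libraries from tissue labelled wild type and 3 from tissue labelled Erk1/2 -/- by its genotype label, the knockout of a pair of kinases of the MAP kinase pathway. The labels name neither the alleles nor a Cre driver, nor the stretch of intestine taken, and do not say whether replicates were different animals, so every p-value is relative to the spread between libraries only. The libraries are called WT 1 to 3 and KO 1 to 3 after their titles. Values are normalised counts: reads per gene divided by a scaling factor for each library and rounded.

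Enterocytes, the absorptive cells of the villus, are specified by a small set of DNA-binding proteins that act together. CDX1 and CDX2 are homeobox proteins that set intestinal rather than gastric identity, and their levels rise from proximal to distal gut. HNF4A and HNF4G are nuclear receptors that keep enterocytes differentiated and drive genes of the brush border and lipid handling. GATA4 and GATA6 are zinc finger proteins, of which GATA4 is made in the proximal small intestine and holds down ileal bile acid genes there. PRDM1 (BLIMP1) is a repressor that keeps the epithelium in its suckling state and is lost as pups wean. MAF (c-MAF) is a bZIP protein of villus enterocytes, and also of macrophages, T cells and some endothelium.

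The transcript of Mapk3, which encodes ERK1, did not bear out the genotype labels. It had a log2 fold change of 0.09 ± 0.22 (SE), KO-labelled minus wild type, and did not pass (limma adjusted p = 0.819). The direction turned under 2 other scalings and without some libraries. Reads were counted per gene, so the files hold no value for single exons. The KO names are therefore those of the labels only. The files summed to between 13641468 and 17153570 normalised counts. Xist was at 6551, 5924 and 4596 in WT 3, KO 2 and KO 3, and at 19 or less in the others.

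Of the 8 genes, Maf and Prdm1 fell in the KO-labelled libraries and none rose. All 8 passed the filter on low values. A call here is a Benjamini-Hochberg adjusted p under 0.05 in limma, fitted over all 14686 genes that passed the filter, of which 3.94% were called lower and 4.85% higher (8.79% in all). The median log2 fold change was 0.07 over the 8 genes and -0.01 over all genes tested. The number of the 8 that were called was 0 without WT 1 or WT 2, 1 without WT 3, 4 without KO 1, 1 without KO 2 and 0 without KO 3. Over all genes, the calls in these fits changed too: 78 without WT 1, 57 without WT 2 and 387 without WT 3. They numbered 2998 without KO 1, 619 without KO 2 and 28 without KO 3, among 14428 to 14555 genes tested.

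**Figure D1:**
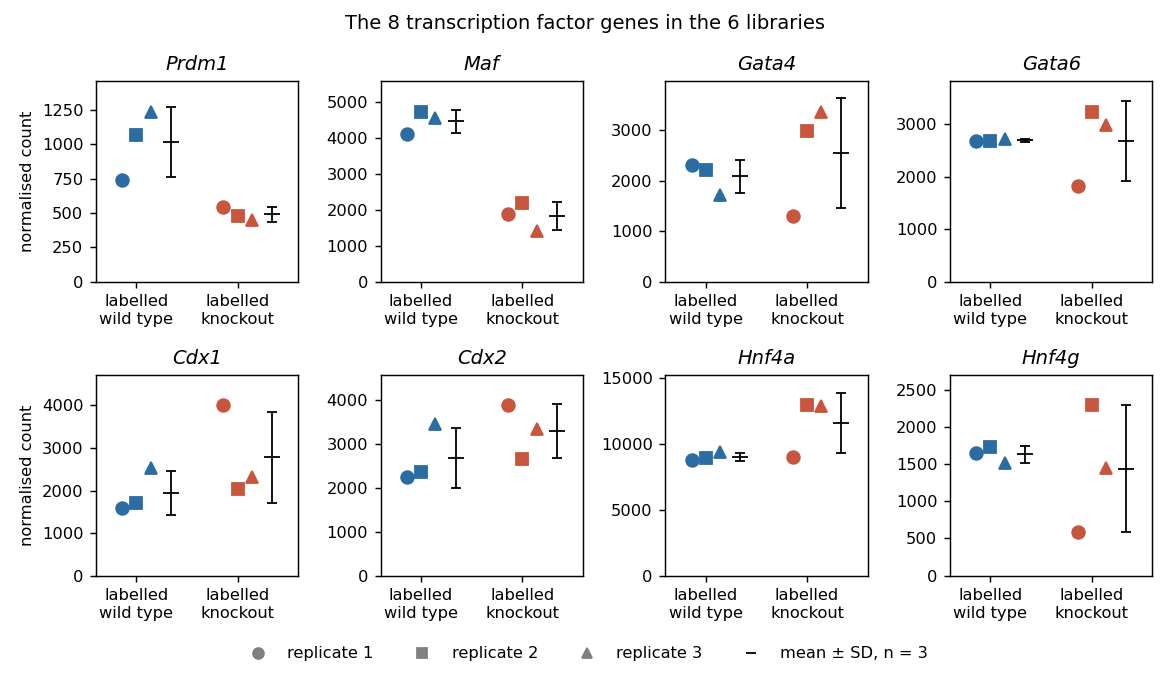
Normalised counts of the 8 genes in each library, with the vertical axis from 0. Points are libraries, shaped by replicate number, and bars are the mean ± SD of 3 libraries. Maf and Prdm1 have their groups apart, and in the other 6 genes the groups overlap.

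Maf had the largest difference of the 8. It lies on chromosome 8 from 115682942 to 115707794, minus strand (GRCm38). Its normalised counts were 4103, 4724 and 4554 in WT 1 to 3 and 1881, 2189 and 1423 in KO 1 to 3. Every wild type library was above every KO-labelled library, as was the case for 17.8% of all genes tested. Group means were 4460.3 ± 321 and 1831 ± 385 (SD, n = 3 each), which is 2.47-fold lower. The log2 fold change was -1.30 ± 0.19 (SE), with a limma adjusted p of 0.0172. The call was lost without WT 1, WT 2 or KO 3, at limma adjusted p-values of 0.069, 0.108 and 0.0684, with fold changes of -1.36, -1.26 and -1.13. In the libraries low in Xist, the values were 4103 and 4724 against 1881, and in those high in Xist 4554 against 2189 and 1423.

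Markers of other cells that transcribe Maf moved in part with it. Of 8 endothelial genes tested, 4 were called lower and none higher, where 3.94% of all genes were called lower. The 4 were Pecam1 (-0.74 ± 0.14), Cdh5 (-0.78 ± 0.14), Kdr (-0.81 ± 0.15) and Flt4 (-0.68 ± 0.14), all genes of vessel adhesion or growth factor receptors. The list was mixed: Pdpn had 0.47 ± 0.16 (limma adjusted p = 0.104), with every KO-labelled library above every wild type library, and Lyve1 had -0.17 ± 0.15. The summed level of that list was 4553 to 5170 normalised counts in wild type and 2876 to 3228 in KO-labelled libraries. Of 10 macrophage genes tested, Adgre1 (-0.96 ± 0.22) fell and none rose, with sums of 8295 to 9941 and 6131 to 10818. Of 7 T cell genes, 6 were tested and none was called in limma (1 at an unadjusted p under 0.05), with sums of 295 to 348 and 239 to 291. No marker of these 3 lists was at 0 in all libraries. Their part in the fall of Maf was not tested. In whole tissue, fewer cells of a type and less RNA per cell cannot be told apart.

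Prdm1 fell as well. The gene lies on chromosome 10 from 44437177 to 44528501, minus strand (GRCm38). Its normalised counts were 737, 1067 and 1236 in WT 1 to 3 and 547, 475 and 447 in KO 1 to 3. The groups did not overlap, and the wild type libraries were spread more widely than the KO-labelled libraries. Group means were 1013 ± 254 and 489.7 ± 51.6 (SD, n = 3 each), which is 2.03-fold lower. The log2 fold change was -1.02 ± 0.21 (SE), with a limma adjusted p of 0.0372. The call was lost in each fit without 1 library other than KO 1, at limma adjusted p-values of 0.0568 without WT 1, 0.173 without WT 2, 0.0921 without WT 3, 0.0725 without KO 2 and 0.128 without KO 3. The fold change in these fits stayed between -1.23 and -0.86. With the Xist level as a covariate the limma adjusted p was 0.052. In the libraries low in Xist the values were 737 and 1067 against 547, and in those high in Xist 1236 against 475 and 447.

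The stretch before the RefSeq start of Prdm1 is shown because Prdm1 was the called gene with a promoter in the RefSeq table (GRCm38.p6). It is chr10:44458749-44458998 on the minus strand, inside the longer GENCODE gene model, and holds no annotated exon of Prdm1.
Prdm1: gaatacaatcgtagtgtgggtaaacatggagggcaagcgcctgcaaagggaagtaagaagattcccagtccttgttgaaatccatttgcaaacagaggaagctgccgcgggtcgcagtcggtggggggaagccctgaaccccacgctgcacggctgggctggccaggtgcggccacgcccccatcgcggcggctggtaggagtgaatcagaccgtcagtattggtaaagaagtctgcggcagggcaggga
None of 5 short motifs was found in it on either strand: AGATAA for GATA proteins, CAAAGT for HNF4, TTTATG for CDX, TGCTGA for MAF and GAAAGT for PRDM1 itself. Among the 250 bases upstream of all 32851 starts in the table, these letters occurred in 9.99%, 12.6%, 10.8%, 16.1% and 12.3%. The absence says only that these letters are not in this window.

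PRDM1 is also made by plasma cells and some other lymphocytes. Of 10 B and plasma cell genes, 8 were tested, and 3 of them fell, where 3.94% of all genes were called lower. Among the 3 were Cd79a (-2.82 ± 0.32) and Ms4a1 (-1.75 ± 0.36), genes of B cells before the plasma cell stage. Sdc1, a syndecan that epithelium makes too, rose by 0.86 ± 0.16. Of the plasma cell genes, Mzb1 was at 13 to 16 normalised counts in wild type and 11 to 15 in KO-labelled libraries, Jchain at 8 to 69 and 17 to 125, and Tnfrsf17 at 1 or 0 in all libraries. Pax5 was listed at 0 in the KO-labelled libraries. The list summed to 1581 to 1876 and 2289 to 2896 normalised counts, most of it Sdc1. The part of the B and plasma cell genes in the fall of Prdm1 was not tested.

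Lists of suckling and weaned enterocyte genes were described with Prdm1, and whether PRDM1 acts on their members was not tested. These lists overlap with lists of earlier work on these libraries and are no independent support. In a list of 11 suckling enterocyte genes, 9 were tested, all with negative fold changes, and the median was -0.61. KO 1 did not share in this. The mean of the 9 genes, as log2 values centred over the libraries, was 0.15, 0.36 and 0.97 in WT 1 to 3. In KO 1 to 3 it was 0.60, -0.79 and -1.29, so that KO 1 lay above WT 1 and WT 2. Only Lct, which encodes lactase, was called, with -1.22 ± 0.28 (limma adjusted p = 0.0446), where 3.94% of all genes were called lower. Cubn, an endocytic receptor, had -2.05 ± 0.52, Dab2, its adaptor, -2.61 ± 0.92, and Fcgrt, the neonatal Fc receptor, -1.32 ± 0.57, none of which passed. In a list of 9 weaned enterocyte genes, 4 rose, where 4.85% of all genes were called higher. All 9 fold changes were positive, with a median of 1.92. Those that rose were Duox2 (3.85 ± 0.23) and Duoxa2 (4.94 ± 0.61), an oxidase of the mucosal surface and its maturation factor, Fut2 (2.27 ± 0.39), a fucosyltransferase, and Krt20 (1.94 ± 0.32), a keratin of mature surface cells. Arginase 2, trehalase and sucrase-isomaltase, enzymes that appear at weaning, had 1.92 ± 0.98 (Arg2), 1.45 ± 0.71 (Treh) and 1.19 ± 0.66 (Sis) and did not pass. Mgam, a maltase-glucoamylase, had 1.43 ± 0.42 (limma adjusted p = 0.0752). Without WT 3 and KO 1, 6 suckling genes fell and 6 weaned genes rose, where 12.1% and 14.3% of all genes were called in those directions. With a segment score in the fit, the mean of proximal genes minus that of ileal genes, 5 fell and 8 rose, against 15.4% and 17.2% of all genes. Without 1 library, the calls numbered 0 to 4 in the suckling list, with 4 without KO 1 and 0 without any other single library, and 1 to 5 in the weaned list, with 1 without WT 2 or KO 3.

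The 6 libraries differed in how much proximal intestine they showed, and Gata4, Cdx1 and Cdx2 were lowest or highest in the libraries that stood apart. Pdx1, a homeobox gene of duodenum and pancreas, had normalised counts of 453, 343 and 3 in WT 1 to 3 and of 14, 718 and 682 in KO 1 to 3. Onecut2, a duodenal transcription factor, was at 1835, 1960 and 200 and then at 75, 2560 and 2216, and Cybrd1, the duodenal iron reductase, at 6634, 3087 and 402 and then at 224, 9894 and 7285. Wild type 3 and KO 1 were thus low in duodenal genes, 1 library in each group. Prdm1 was highest within its group in each of these 2 libraries. On the log2 scale it was 0.48 above the mean of WT 1 and 2 in WT 3, and 0.25 above that of KO 2 and 3 in KO 1. Fgf15, an ileal hormone, was at 1975 in WT 3 and 390 in KO 1 and at 13 or less in the others, while the ileal bile acid binder Fabp6 was at 1947 in KO 1 and at 4 or less elsewhere. These 2 libraries were alike in low duodenal genes and in high Fgf15, and differed in Fabp6. Pancreatic and gastric RNA differed too. Cpa1, a pancreatic carboxypeptidase, was at 3088 in WT 1 and at 244 or less in the others. Ctrb1, another pancreatic gene, did not follow it outside WT 1. It was at 15714, 1256 and 2309 in WT 1 to 3 and at 7600, 2835 and 63 in KO 1 to 3. Gkn1, a gastric peptide gene, was at 2687 in WT 1, 1444 in WT 2 and 308 or less in the others.

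**Figure D2:**
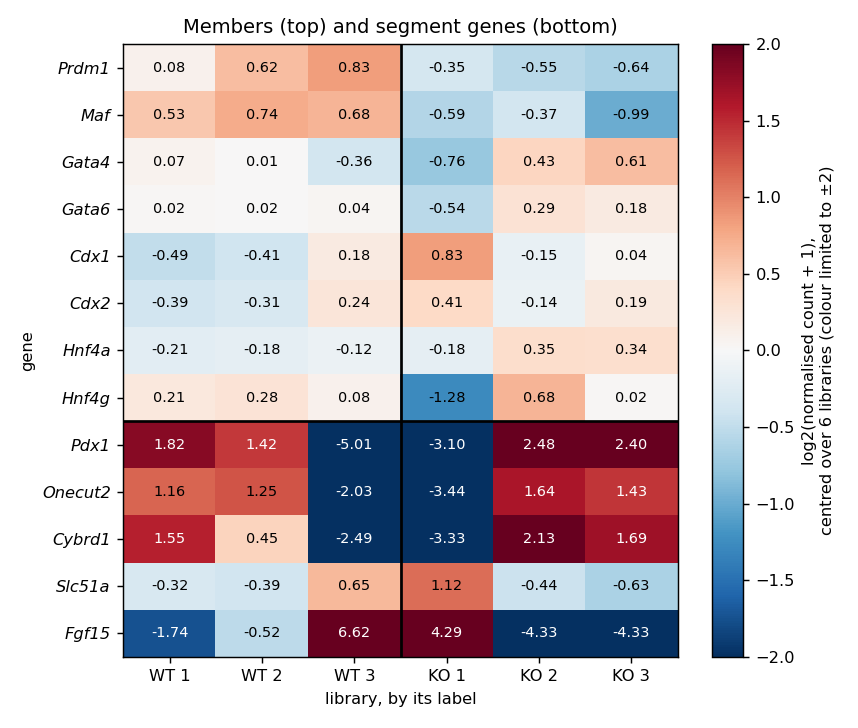
Each cell gives the log2(normalised count + 1) of a gene in a library, centred over the 6 libraries. The duodenal genes Pdx1, Onecut2 and Cybrd1 are low and the distal genes Slc51a and Fgf15 high in WT 3 and KO 1, where Gata4 is lowest and Cdx1 and Cdx2 are highest.

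Gata4 was lowest in the libraries low in duodenal genes. It lies on chromosome 14 from 63198922 to 63271692, minus strand. WT 1 to 3 held 2319, 2216 and 1717 normalised counts, and KO 1 to 3 held 1303, 2978 and 3367. On the log2 scale WT 3 differed by -0.40 from the mean of WT 1 and 2, and KO 1 by -1.28 from the mean of KO 2 and 3. Over all libraries the means were 2084 ± 322 and 2549 ± 1097 (SD, n = 3 each), and the log2 fold change was 0.19 ± 0.36 (limma adjusted p = 0.75). Without WT 3 and KO 1, Gata4 rose by 0.48 ± 0.12 (limma adjusted p = 0.0262), in a fit where 14.3% of 14232 genes were called higher. It also passed without KO 1 alone (0.62 ± 0.16, limma adjusted p = 0.0433, with 20.6% of genes called in either direction), and its sign turned without KO 3, at -0.07. With the segment score in the fit it did not pass (0.19 ± 0.11, limma adjusted p = 0.229).

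Gata6, which is made along the whole small intestine and in its stroma, lies on chromosome 18 from 11052064 to 11085635, plus strand. Its normalised counts were 2688, 2679 and 2725 in WT 1 to 3, an SD of 24.4 around a mean of 2697. In KO 1 to 3 they were 1821, 3242 and 2996, below and above the wild type range. The log2 fold change was -0.05 ± 0.23 (limma adjusted p = 0.897), and it was 0.21 without KO 1 and 0.22 without WT 3 and KO 1, where it did not pass either. The exons of Gata6 share 93 bases with those of 1010001N08Rik, a transcript from the opposite strand at 147 to 249 normalised counts, whose reads could not be told apart there without strand.

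The 2 CDX genes were highest where the duodenal genes were low. Cdx1, on chromosome 18 from 61018862 to 61036199, minus strand, had normalised counts of 1596, 1695 and 2539 in WT 1 to 3 and 3999, 2029 and 2306 in KO 1 to 3. On the log2 scale, WT 3 differed by 0.63 from the mean of WT 1 and 2, and KO 1 by 0.89 from the mean of KO 2 and 3. The genotype difference was 0.48 ± 0.30 (limma adjusted p = 0.317). With the segment score as a covariate Cdx1 rose by 0.48 ± 0.11 (limma adjusted p = 0.0165), in a fit where 17.2% of genes were called higher and 32.6% in all. Without WT 3 and KO 1 it did not pass, at 0.40 ± 0.12 (limma adjusted p = 0.0501). Without KO 1 alone, its highest library, the difference was 0.19 ± 0.22 (limma adjusted p = 0.557). That was the low end of a range up to 0.69 in the fits without 1 library.

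Cdx2, on chromosome 5 from 147300805 to 147307270, minus strand, had normalised counts of 2241, 2359 and 3473 in WT 1 to 3 and 3885, 2666 and 3342 in KO 1 to 3. Its departures in the same 2 libraries were 0.59 and 0.38 on the log2 scale. The KO-labelled libraries lay within or above the wild type range, with means of 2691 ± 679.8 and 3298 ± 611 (SD, n = 3 each). The log2 fold change of 0.30 ± 0.23 did not pass (limma adjusted p = 0.394), nor did it without WT 3 and KO 1 (0.38 ± 0.14, limma adjusted p = 0.0886) or with the segment score (0.31 ± 0.15, limma adjusted p = 0.148).

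Hnf4a had the highest normalised counts of the 8 genes in every library. It lies on chromosome 2 from 163506808 to 163572910, plus strand. It reached 8780, 8977 and 9377 normalised counts in WT 1 to 3, and 8991, 12942 and 12884 in KO 1 to 3. Labelled knockout 1 lay within the wild type range, and KO 2 and 3 lay above it. The log2 fold change was 0.34 ± 0.19 (limma adjusted p = 0.263). Hnf4a rose by 0.51 ± 0.13 without KO 1 (limma adjusted p = 0.0362), where 10.6% of all genes were called higher. It rose by 0.54 ± 0.12 without WT 3 and KO 1 (limma adjusted p = 0.0195), where 14.3% were called higher. With the segment score it did not pass (0.34 ± 0.13, limma adjusted p = 0.0851). Hnf4aos, a transcript from the opposite strand that shares no exon bases with Hnf4a, had lower values in all 3 KO-labelled libraries, 122, 82 and 128 against 211, 192 and 137 in wild type (-0.70 ± 0.25, limma adjusted p = 0.117).

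Hnf4a has an upstream and a downstream start, which give proteins with different amino termini, and a count per gene adds them up. The RefSeq table (GRCm38.p6) has a window at each, and the one upstream is shown to mark where the longer transcripts begin, at chr2:163506607-163506807 on the plus strand, ending where the first annotated exon begins.
Hnf4a, upstream start: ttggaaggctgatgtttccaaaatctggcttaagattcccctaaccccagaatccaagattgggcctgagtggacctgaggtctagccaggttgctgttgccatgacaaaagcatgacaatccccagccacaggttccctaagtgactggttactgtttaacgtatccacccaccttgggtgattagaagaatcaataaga
None of the 5 motifs occurred in it, and the values here cannot be divided between the starts.

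Hnf4g, the second HNF4 gene, was very low in a single library. It lies on chromosome 3 from 3508030 to 3658052, plus strand. Its normalised counts were 1654, 1731 and 1511 in WT 1 to 3 and 586, 2289 and 1444 in KO 1 to 3. On the log2 scale KO 1 differed by -1.63 from the mean of KO 2 and 3, while WT 3, also low in duodenal genes, differed by -0.16 from the mean of WT 1 and 2. The genotype difference was -0.39 ± 0.45 (limma adjusted p = 0.595), and without KO 1 it was 0.16 ± 0.20 with the opposite sign (limma adjusted p = 0.596).

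**Figure D3:**
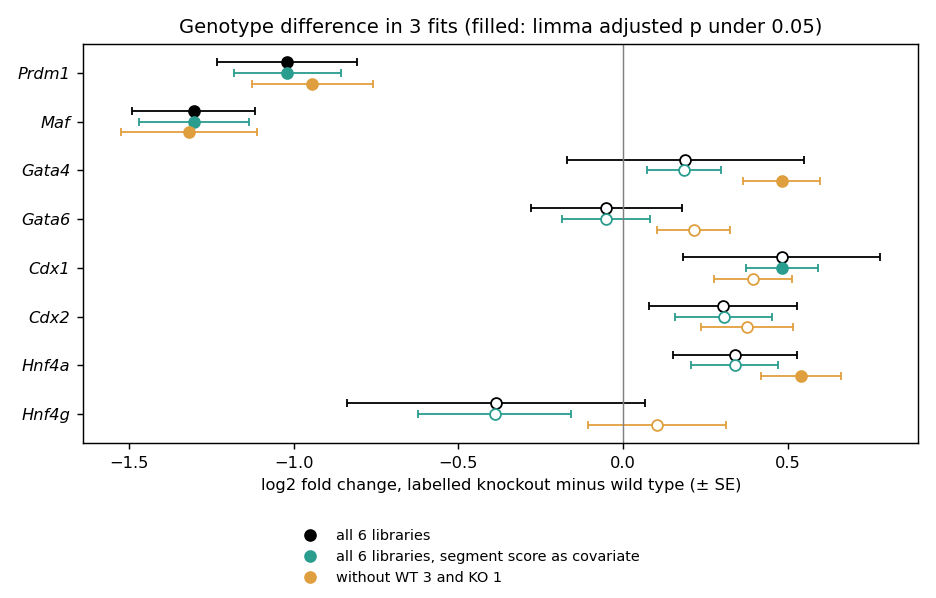
Log2 fold change of each gene, KO-labelled minus wild type, with its SE, in 3 fits; filled points have a limma adjusted p under 0.05. Maf and Prdm1 are lower in all 3 fits, Gata4 and Hnf4a pass only where WT 3 and KO 1 are left out, and Cdx1 only with the segment score as a covariate.

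Epithelial genes as a list had higher values in the KO-labelled libraries. Of 8 epithelial genes tested, all had positive fold changes, with a median of 0.58. Krt8 (1.28 ± 0.20) and Krt19 (1.45 ± 0.18), keratins of simple epithelium, rose, where 4.85% of all genes were called higher. Epcam, an epithelial adhesion protein, had 0.40 ± 0.20 (limma adjusted p = 0.218) and Cdh1, E-cadherin, 0.34 ± 0.21. The list summed to 89236 to 111536 normalised counts in wild type and 162156 to 180705 in KO-labelled libraries. Its part in the values of Hnf4a, Cdx1 and Cdx2 was not tested. Of 5 crypt stem cell genes, only Axin2, a Wnt target, was called (-0.84 ± 0.15), and of 8 proliferation genes only Ccnb1, a mitotic cyclin (0.75 ± 0.17). Over all genes tested, 8.79% were called in either direction. Of 8 genes of muscle and stroma, which also transcribe Gata6, none was called in limma (2 at an unadjusted p under 0.05), with sums of 46320 to 60790 and 36665 to 51597. None was called in limma among 8 genes of enteric neurons and glia (2 at an unadjusted p under 0.05), or among the 4 of 7 pancreas genes, 4 of 6 stomach genes and 3 of 5 colon genes that were tested (0 at an unadjusted p under 0.05). Car1 and Hoxb13 of the colon list were at 0 in all libraries.

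Ratios within a library do not depend on its scaling, and 3 pairs of related genes were compared in this way. The log2 ratio of Hnf4a to Hnf4g was 2.41, 2.37 and 2.63 in WT 1 to 3 and 3.94, 2.50 and 3.16 in KO 1 to 3, a difference of 0.73 ± 0.42 (SE). The groups overlapped, with KO 1 highest. The log2 ratio of Gata4 to Gata6 was -0.21, -0.27 and -0.67 and then -0.48, -0.12 and 0.17, a difference of 0.24 ± 0.24, and it was lowest in WT 3. The log2 ratio of Cdx2 to Cdx1 was 0.49, 0.48 and 0.45 in wild type, an SD of 0.019, and -0.04, 0.39 and 0.54 in KO-labelled libraries, a difference of -0.18 ± 0.17. The difference for Hnf4a to Hnf4g was above the pooled SD of the libraries (0.52), most of which came from the KO-labelled libraries, and the other two were below theirs (0.29 and 0.21). None passed, with two-sided exact permutation p-values of 0.2, 0.4 and 0.5, each 0.5 after adjustment over the 3, where 3 against 3 libraries cannot go below 0.1.

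To compare levels between genes, normalised counts were divided by the length of all annotated exons in kilobases. In wild type, Hnf4a had the highest level per kilobase, 1873 ± 63.0 (SD, n = 3), followed by Cdx2 at 1190.2 ± 301 and Cdx1 at 1110.5 ± 296, whose ranges overlapped. Hnf4g came next at 621 ± 42.4, then Maf at 541 ± 38.9 and Gata4 at 534 ± 82.5. The lowest Hnf4g library, at 575, nearly met the highest Maf library, at 573, and the range of Gata4 overlapped those of both. Gata6 at 414 ± 3.75 and Prdm1 at 182 ± 45.5 were lowest. In KO-labelled libraries Maf and Prdm1 had the lowest means, 222 ± 46.8 and 87.8 ± 9.25 per kilobase, and their ranges did not overlap. Prdm1 lay below the range of every other member, and Maf below all of the rest except Hnf4g, whose lowest library was at 223. There Hnf4a had the highest mean, but in KO 1 Cdx1 was above it, at 2285 against 1862 per kilobase. Exon lengths ran from 1750 bases for Cdx1 to 8241 for Maf and take in exons that intestine may not use. Those of Maf share 440 bases with Gm15655, an antisense gene not analysed here.

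Genes known as targets of these proteins were taken from lists made for these 8 genes. Of 12 genes of lipid export and the brush border known as HNF4 targets, none was called in limma with genotype as the only term, with 3 at an unadjusted p under 0.05, and the median log2 fold change was -0.12. The lowest limma adjusted p was that of Fabp1, a fatty acid binding protein, at 0.0543 (0.89 ± 0.22). Apoc3, an apolipoprotein, had -1.18 ± 0.43, Mep1a, a brush border protease, -1.58 ± 0.69 and Npc1l1, the cholesterol importer, -0.55 ± 0.23. The most abundant, Apoa4 and Apoa1, apolipoproteins of chylomicrons and HDL, had -0.37 ± 0.41 and 0.09 ± 0.39. Without WT 3 and KO 1, Fabp1 rose and Apoc3, Mep1a and Npc1l1 fell, where 26.4% of genes were called. The same 4 were called without KO 1 alone (20.6% of all genes) and in the fit with the segment score (32.6%). None was called without any other single library. Fabp1 was the 1 gene called with a filter at 50 or with the Xist covariate.

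Of 7 CDX2 targets, Lct fell and no other was called, where 8.79% of all genes were called. Without 1 library, Lct was called only without KO 1, together with Cdh17, and Cdh17 alone was called without WT 3. Cdh17, an intestinal cadherin, had 0.79 ± 0.20 (limma adjusted p = 0.0529), Muc2, the main gut mucin, 1.17 ± 0.32 (0.0653) and Vil1, the villin of the brush border, 0.44 ± 0.15 (0.115), each higher in all 3 KO-labelled libraries than in any wild type library, as was true of 19.8% of all genes tested. Without WT 3 and KO 1, 6 of the 7 were called, 5 higher and Lct lower, and with the segment score as a covariate the same count was found, in fits where 26.4% and 32.6% of all genes were called. Neither the 7 proximal genes nor the 3 tested of 5 ileal bile acid genes had a limma call with genotype as the only term, nor an unadjusted p under 0.05. With the segment score as a covariate, Slc46a1 and Slc51b rose and Fgf15 fell. These genes are themselves part of the score, so their calls in that fit cannot be read as genotype differences. Without WT 3 and KO 1, Slc46a1 and S100g, a calcium-binding protein of duodenum, rose. Slc46a1, the proximal folate transporter, had 0.85 ± 0.44. Among the ileal genes, Slc51a, a subunit of the bile acid exporter, had 0.04 ± 0.50, Slc51b, its partner, 0.39 ± 0.25 and Fgf15 -2.91 ± 2.94.

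Among 28 other transcription factor genes of the intestine, 1 rose and 1 fell, against 8.79% called over all genes tested. Elf3, an ETS factor of differentiating epithelium, rose from 4488, 4293 and 3809 normalised counts in WT 1 to 3 to 8557, 7810 and 6453 in KO 1 to 3 (0.85 ± 0.16, limma adjusted p = 0.0295). Zfpm2 (FOG2), a cofactor that binds GATA proteins, fell from 22, 23 and 25 to 7, 11 and 10 (-1.25 ± 0.29, limma adjusted p = 0.0468). Klf4, a factor of differentiated epithelium, had 0.70 ± 0.24 (limma adjusted p = 0.11), and Creb3l3, a lipid-responsive factor of enterocytes and the most abundant of the list, 0.42 ± 0.21. The median of the list was 0.23. The calls of this list numbered 0 without WT 1, WT 2, KO 2 or KO 3, 1 without WT 3 and 8 without KO 1, where 20.6% of all genes were called. The gene called without WT 3 was neither Elf3 nor Zfpm2. The call of Elf3 was thus lost in every fit without 1 library other than KO 1, and also with a replicate block. Without WT 3 and KO 1, 12 were called, 11 of them higher, where 26.4% of all genes were called and 14.3% higher. The call of Zfpm2, whose values lie near the filter, was lost with no filter and with a replicate block, and in every fit without 1 library other than KO 1.

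**Figure D4:**
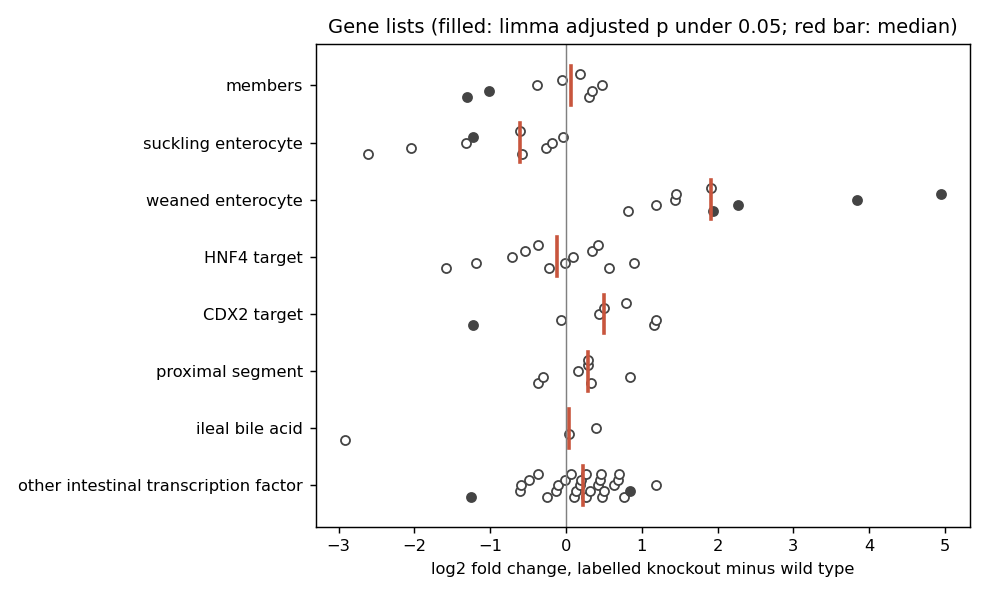
Log2 fold change of every tested gene of the 8 members and of each gene list, KO-labelled minus wild type, with filled points for a limma adjusted p under 0.05 and red bars for medians. Weaned enterocyte genes all lie above 0 and suckling enterocyte genes all below 0, while the HNF4 target list has a median of -0.12.

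The genes whose levels followed each member most closely were sought among 10642 genes with a mean of at least 100 normalised counts. Likeness was the root mean square difference of log2 values centred over the 6 libraries, a description without a test. The nearest to Prdm1 was Srpk2, a kinase of splicing factors, at 0.045, with normalised counts of 279, 377 and 455 in WT 1 to 3 and 191, 171 and 154 in KO 1 to 3. Igf2r, the receptor that carries lysosomal enzymes and clears IGF2, came next at 0.11, and then Gramd1b, a sterol transporter, at 0.13. Prdm1 itself spread by 0.56 on that scale. Nearest to Maf, which spread by 0.68, were Zfp862-ps (0.082), Trp53inp1, a p53-induced gene of autophagy (0.10), and Stbd1, which binds glycogen (0.12). The nearest to Gata4 was Myo10, an unconventional myosin of filopodia, at 0.089. Those nearest to Gata6 and Hnf4a were Pfas, a purine synthesis enzyme, at 0.032 and Arf6, a small GTPase of membrane traffic, at 0.04. Zdhhc12 was nearest to Cdx1 at 0.064, Wdr70 to Cdx2 at 0.069, and Cpeb2, an RNA-binding protein, to Hnf4g at 0.072. Among the 8 genes themselves, Cdx1 and Cdx2 were closest, at 0.20, followed by Gata6 and Hnf4a at 0.22, Gata4 and Gata6 at 0.26 and Prdm1 and Maf at 0.28, and the farthest apart were Cdx1 and Hnf4g at 1.01. Hnf4a and Hnf4g stood 0.56 apart.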

How the data were processed

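PolyA RNA of 6 small intestine libraries was sequenced after Trizol extraction and the Illumina TruSeq RNA kit, per the labels' protocols. TopHat2 2.1.0, HTSeq 0.6.0, DESeq2 and the build mm10 are named in the submitters' processing notes; the annotation and strand setting are not stated in them. The deposited values are a score per symbol and not raw counts, since recomputed median-ratio factors were 1.0042 to 1.0064 in all libraries, and in WT 3 and KO 1 and 3 some whole numbers up to 30 occurred in no gene. They were read as counts divided by a factor per library by the authors and rounded, so reads are unknown and no counting interval was computed. Symbols numbered 24452, of which 27 had been turned into dates.

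limma 3.58.1 in R 4.3.3 was fitted to log2(normalised count + 1), which understates changes of low genes, with an intensity trend and genotype as the only term, on the 14686 genes that reached 10 in 3 or more libraries (4 residual and 2.99 prior degrees of freedom, two-sided, Benjamini-Hochberg adjustment over all genes, threshold 0.05). The fit was also run on simulated libraries, drawn with the same dispersion for all genes. These held no differences of segment or Xist level within a group, so that run says nothing about such differences here. Positions and exon lengths came from GENCODE M21 (GRCm38, the assembly of mm10), and promoters from RefSeq, which had an entry for 3 of the 8 genes. The members, lists and tests were chosen with earlier results of these data known. Named were all members, the 4 genes with the lowest p and the 2 most abundant of each target list, and 3 genes nearest to each member, in part; Pdx1, Onecut2, Cybrd1, Fabp6, Arg2, Treh, Sis, Cpa1, Gkn1, Hnf4aos and single marker genes were chosen after their values were seen. Alternatives changed scaling, pseudocount, filter, trend, threshold, covariates, a replicate block and the libraries used. Some genes of the lists are not reported here by name.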

Additional observations from a re-analysis of the deposited data

How the results depend on the processing

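Maf and Prdm1 were called under 3 other scalings (library totals, upper quartile, trimmed mean), pseudocounts of 0.5 and 5, no filter, a filter at 50, no intensity trend and a threshold of 0.1. Their fold changes stayed negative in all 20 alternatives, from -1.48 to -1.13 for Maf and from -1.23 to -0.86 for Prdm1. Changes of filter, trend, threshold and replicate block cannot move a fold change, so its sign was tried only by the other alternatives. The count of the 8 members called, 2, became 0 with a replicate block and at a threshold of 0.01, 1 with the Xist covariate (Maf) and 4 without WT 3 and KO 1 (Gata4 and Hnf4a added), and ran from 0 to 4 in fits without 1 library. The count over all genes, 1291, became 64 with a replicate block, 3762 without WT 3 and KO 1, 4784 with the segment score, 52 at a threshold of 0.01 and 2847 at 0.1, and ran from 28 to 2998 without 1 library. The cause was not tested.

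With the replicate block, which leaves 2 residual degrees of freedom, limma adjusted p-values were 0.0733 for Maf and 0.115 for Prdm1. Same-numbered libraries did not deviate together: the correlations across genes were -0.373, 0.302 and -0.161 for numbers 1, 2 and 3, and WT 3 went with KO 1 at 0.412, so the numbers were not taken as pairs.

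Signs turned for Gata4 without KO 3 (range without 1 library -0.069 to 0.616), for Gata6 without WT 3 and KO 1 (0.216) or KO 1 alone (range -0.208 to 0.208), and for Hnf4g in the same fits (0.104, and a range of -0.824 to 0.158). Mapk3 turned with library totals (-0.0888), upper quartile (-0.0045), without WT 3 and KO 1 (-0.245), without WT 3 and without KO 1 (-0.102 and -0.0579, in a range up to 0.222). With library totals the median over all genes shifted from -0.0129 to -0.185 (log2). The ratio differences ranged without 1 library from 0.356 to 1.08 (Hnf4a to Hnf4g), 0.0817 to 0.407 (Gata4 to Gata6) and -0.297 to -0.00818 (Cdx2 to Cdx1). With 3 libraries a group, 1 of them low in duodenal genes, precision differed between members: the SE was 0.19 for Maf and 0.45 for Hnf4g.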
